A study of Homo sapiens with 24 samples.

Results

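In SH-SY5Y human neuroblastoma cells kept in retinoic acid (RA), cultures that carried both an overexpression and a knockdown of miR-125b were compared with scrambled control cultures on day 2. The comparison was set by the sample titles: 3 arrays of RA+ OE+KD D2 against 3 arrays of RA+ SCR D2, which are 6 of the 24 arrays of the series. All probes were considered. The OE+KD arrays came from cells given RA, the miR-125b manipulation written OE in the titles and DP in the source names, and a knockdown whose source name reads mir125, without the letter b. OE is read here as overexpression, since no label spells it out. The scrambled arrays came from cells given RA and the scrambled control alone. RA is therefore common to both groups. For orientation the OE arrays with RA (RA+ OE D2) and the KD arrays with RA (RA+ KD D2, labelled mir125b knockdown) are set beside them, with 3 arrays each. OE and scrambled arrays without RA on day 2 and day 4, also in groups of 3, gave effects that share no array with the comparison. The labels give neither the dose of RA nor the constructs or oligonucleotides, and the growth protocol in the labels describes Sall4 shRNA work, which matches no sample title. The labels do not say whether the 3 arrays of a group came from separate cultures, so p-values measure only the spread between arrays, which may be technical.

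MicroRNAs are short RNAs that guide Argonaute proteins to messenger RNAs, mainly through base pairing of the seed near the 5′ end, and so lower the stability or translation of their targets. miR-125b is the vertebrate relative of lin-4, the first microRNA found in Caenorhabditis elegans, and is abundant in brain. SH-SY5Y is a neuroblastoma line of sympathetic origin, and RA, which acts through nuclear receptors, pushes it toward a neuron-like state. A knockdown added to an overexpression of the same microRNA is a common check that an overexpression effect is reversible.

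The mature sequences that share the miR-125b seed are shown because the knockdown in the OE+KD source name reads mir125 and so names no single family member. The capitals mark bases 2 to 8, the seed, and the sequences are those of RefSeq on GRCh38.p14.
hsa-miR-125b-5p: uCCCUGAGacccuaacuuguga
hsa-miR-125a-5p: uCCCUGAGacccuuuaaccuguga
hsa-miR-4319: uCCCUGAGcaaagccac
The 22 bases of hsa-miR-125b-5p are encoded at both MIR125B1 (chr11:122099809-122099830, minus strand) and MIR125B2 (chr21:16590253-16590274, plus strand). The 24 bases of hsa-miR-125a-5p lie at chr19:51693268-51693291 on the plus strand, within MIR125A. MIR4319, at chr18:44970140-44970156 on the minus strand, gives a 17-base microRNA with the same seed and another 3′ part. The level of no microRNA was analysed here, so the OE and KD labels were not checked against their target.

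The deposited scanner table gave 1 linear intensity for each of 20589 probes on each array. Mean intensity ran from 617.8 to 934.3 over the 6 arrays, within the span of 617.8 to 1134.2 over all 24. Replicates within either group correlated with r of at least 0.9926 across tested probes, and no 2 arrays of the series held identical values. The residual SD was 0.099 to 0.151 log2 on the 6 arrays. On the OE arrays with RA it was 0.198, 0.277 and 0.169, and 0.277 was the highest of all 24. All groups share 1 estimate of the spread, so tests that use these OE arrays do not allow for it. The number of arrays limits the precision. The Illumina probe IDs are not paired with genes in any table used here, so no gene is named, no gene list was run, and the cell line was not checked against its markers. In RNA from whole cultures, a change in every cell and a change in the share of some cells cannot be told apart.

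OE+KD cultures differed from scrambled cultures at 3112 of the 10691 tested probes, or 29.1%. Of these, 1509 were higher and 1603 lower in OE+KD (limma, Benjamini-Hochberg adjusted p under 0.05). Testing required a probe to exceed the array median on every array of 1 or more of the 8 groups. The changes were numerous and small. The median was 0.39 log2 among the higher probes, with quartiles of 0.31 and 0.52, a 1.31-fold change. Among the lower ones it was -0.40, with quartiles of -0.52 and -0.32. At least 2-fold, 43 probes were higher and 19 lower. Another 368 and 434 lay between 0.5 and 1 log2, which left 1098 higher and 1150 lower probes under 0.5. The 3 OE+KD arrays lay wholly above or wholly below the 3 scrambled arrays at 4864 tested probes, or 45.5%, and this held for 1455 of the probes called higher and 1560 of those called lower. The split of directions depends on the scaling: 48.5% of the called probes were higher with quantile normalization and 29.6% with median scaling.

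**Figure D1:**
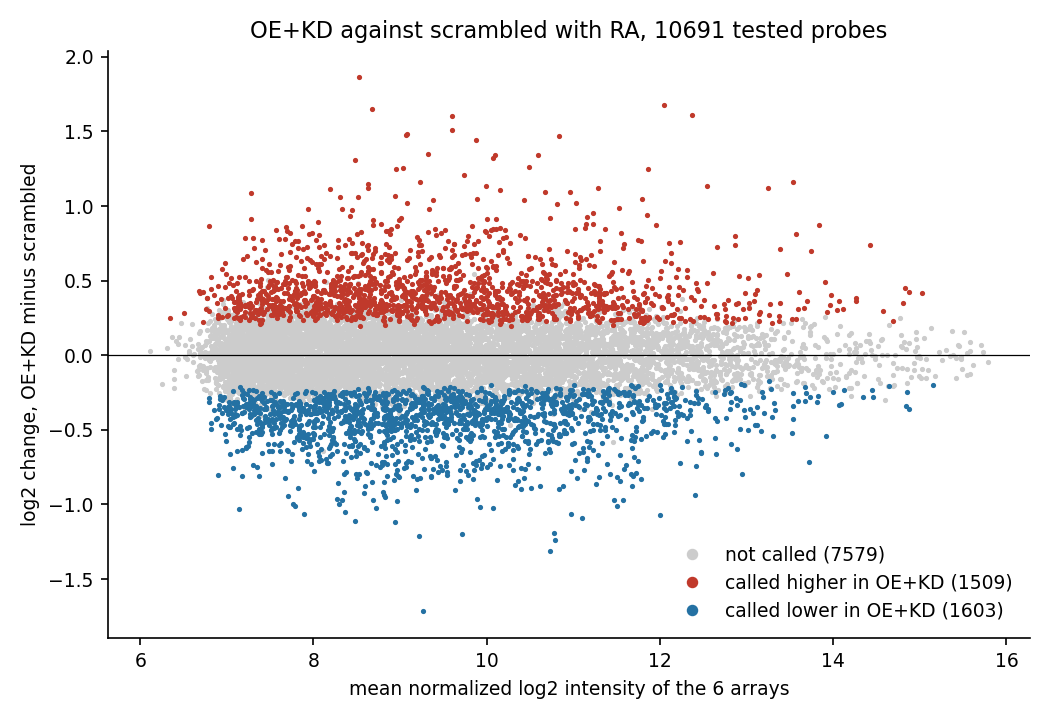
Each point is a tested probe, with the mean normalized log2 intensity of the 6 arrays across and the log2 change, OE+KD minus scrambled, upward. The 1509 probes called higher (red) and the 1603 called lower (blue) spread over the whole range of intensity, and 43 and 19 of them change by at least 1 log2.

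Called probes were found at every level of signal. Tested probes were put in 4 equal bins by level. In the dimmest bin (median scanner intensity 92.8), 21.8% were called, 288 higher and 296 lower. The share was 31.8% in the next bin and 33.3% in the one above it. In the brightest bin, with a median scanner intensity of 2660, it was 29.4%, with 388 higher and 399 lower. The median size of a called change was 0.39, 0.41, 0.40 and 0.37 log2 from the dimmest to the brightest bin. The median standard error fell little over the same span, with 0.106 log2 in the dimmest and 0.096 in the brightest bin. Changes of at least 1 log2 were fewer among the dim probes, with 4 in the dimmest bin and 18, 20 and 20 in the others. The offset added before the log compresses folds at low intensity.

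The probe that rose most was ILMN_22953. Its normalized log2 intensity was 9.49, 9.39 and 9.48 in OE+KD arrays, against 7.45, 7.64 and 7.68 in scrambled arrays. The groups lay far apart, and the rise was 1.86 log2 (SE 0.126, limma adjusted p = 6.50e-11), a 3.64-fold change. On the scanner scale the same probe read 467.7, 519.9 and 611.8 in OE+KD arrays, against 82.0, 129.1 and 146.2 in scrambled arrays. Its size depended on the processing: the rise was 2.42 log2 without background correction and 1.72 with median scaling in place of quantile normalization.

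ILMN_6588 stood second among the rises. It read 13.05, 12.85 and 12.76 in OE+KD arrays, against 11.28, 11.13 and 11.22 in scrambled arrays. This bright probe rose by 1.67 log2 (SE 0.0861, limma adjusted p = 5.38e-13), or 3.19-fold. Within the arrays of the same replicate number the differences were 1.77, 1.72 and 1.54 log2, all upward and close to each other.

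ILMN_21370 fell most. Its log2 intensity was 8.38, 8.46 and 8.37 in OE+KD arrays, against 10.11, 10.06 and 10.19 in scrambled arrays. The change was -1.72 log2 (SE 0.0869, limma adjusted p = 5.38e-13), with no overlap between the groups. On the scanner scale it read 191.2, 245.4 and 249.6 in OE+KD arrays, against 793.1, 976.5 and 1223.8 in scrambled arrays.

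ILMN_8101 came next among the falls. Its values were 10.05, 10.12 and 10.04 in OE+KD arrays, against 11.41, 11.36 and 11.36 in scrambled arrays. The change of -1.31 log2 (SE 0.116, limma adjusted p = 8.35e-09) was many times the SD of either group, which was 0.04 in OE+KD and 0.03 in scrambled arrays.

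The 10 largest rises without overlap between the groups ran from 1.45 to 1.86 log2, and the 10 largest falls from -1.07 to -1.72. In OE arrays with RA the same 10 rising probes stood 0.90 to 2.76 log2 above scrambled, and in KD arrays 0.43 to 1.80 above it. The 10 falling probes all stood below scrambled in OE arrays, with changes of -2.58 to -0.90 log2, and in KD arrays their values were -1.13 to -0.36. These 3 comparisons share the scrambled arrays, so their likeness is not independent. Direct tests between the manipulated groups do not use the scrambled arrays, but they reuse the OE+KD arrays by which these probes were chosen. That choice favours calls further from scrambled. Against OE, 4 of the 10 rising probes were called nearer to scrambled in OE+KD, 1 was called further from it and 5 were not called. Among the 10 falling probes 2 were called nearer and 8 were not called. Against KD, 2 of the rising and 8 of the falling probes were called further from scrambled in OE+KD, and the others were not called. Of all tested probes, 9.16% were called higher and 8.42% lower than in OE, and 3.59% higher and 5.24% lower than in KD.

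**Figure D2:**
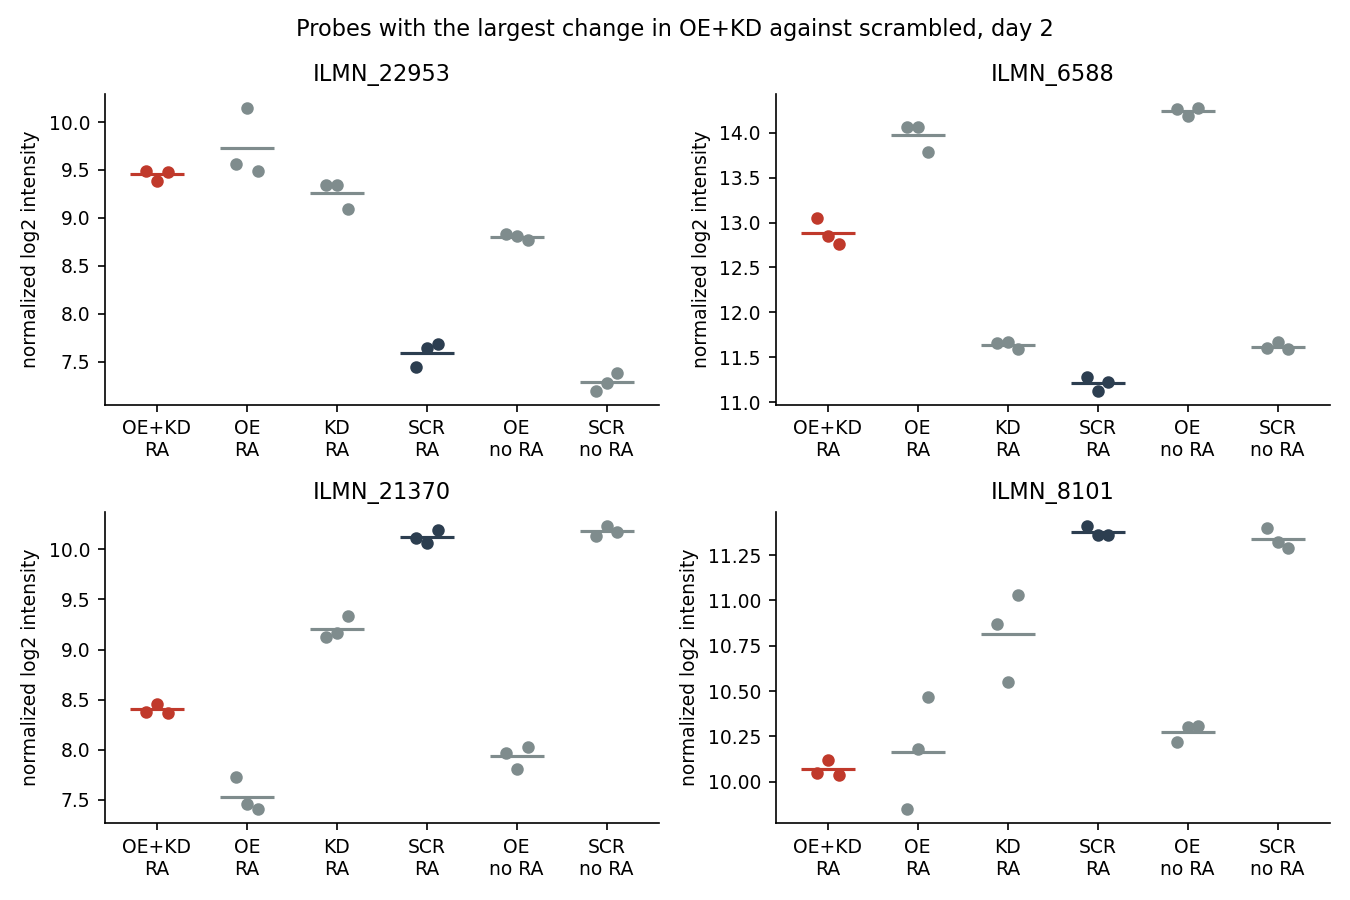
Normalized log2 intensity (vertical axis) of the 2 probes that rose most and the 2 that fell most in OE+KD against scrambled, with 1 point per array, a bar at the mean of 3 arrays, and day 2 groups along the horizontal axis. In each panel the OE+KD points (red) lie clear of the scrambled points (dark), ILMN_6588 and ILMN_21370 sit between the OE and KD arrays, ILMN_22953 sits near both OE and KD arrays, and ILMN_8101 sits beside the OE arrays.

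The 4 probes thus held different places among the manipulated groups. ILMN_6588 averaged 12.88 ± 0.15 in OE+KD, 13.97 ± 0.16 in OE, 11.64 ± 0.04 in KD and 11.21 ± 0.08 in scrambled arrays (SD, n = 3 each). OE+KD differed from OE by -1.09 log2 (limma adjusted p = 1.33e-08) and from KD by 1.25 (limma adjusted p = 1.38e-09), so its level was intermediate. ILMN_21370 averaged 8.40 ± 0.05 in OE+KD, 7.54 ± 0.17 in OE, 9.20 ± 0.11 in KD and 10.12 ± 0.06 in scrambled arrays (SD, n = 3 each). It too was intermediate, 0.87 log2 above OE (limma adjusted p = 6.88e-07) and -0.80 relative to KD (limma adjusted p = 8.33e-07).

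At ILMN_22953 OE+KD was told apart neither from OE nor from KD. It averaged 9.45 ± 0.05 in OE+KD, 9.73 ± 0.36 in OE, 9.26 ± 0.14 in KD and 7.59 ± 0.12 in scrambled arrays (SD, n = 3 each). The difference from OE was -0.28 log2 (SE 0.126, limma adjusted p = 0.124) and that from KD 0.20 (SE 0.126, limma adjusted p = 0.376). ILMN_8101 averaged 10.07 ± 0.04 in OE+KD, 10.17 ± 0.31 in OE, 10.82 ± 0.25 in KD and 11.38 ± 0.03 in scrambled arrays (SD, n = 3 each). It was lower than in KD by 0.75 log2, a difference of -0.75 (limma adjusted p = 0.000107), and differed from OE by -0.10 (SE 0.116, limma adjusted p = 0.582).

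Over the whole table, 1879 probes (17.6%) differed between OE+KD and OE and 944 (8.83%) between OE+KD and KD. In the first, 979 were higher (9.16%) and 900 lower (8.42%) in OE+KD, so 52.1% were higher, against 22.8% with median scaling and 63.9% in the authors' normalized intensities. That count rested on single arrays: 967 probes were left when replicate 2 of OE was dropped, 1173 when replicate 1 of OE+KD was dropped, and 104 in a fit of these 2 groups alone. In the second, 384 were higher (3.59%) and 560 lower (5.24%), so 40.7% were higher, against 25.7% with median scaling, and the count was 577 without replicate 3 of KD. The SD of the log2 change over all tested probes was 0.291 for OE+KD against scrambled, 0.372 for OE against scrambled and 0.246 for KD against scrambled.

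The question that a double manipulation addresses is whether the OE pattern remains when KD is added. The OE pattern was taken from cells without RA, whose arrays are in neither group of the comparison. They do enter the shared estimate of the spread, the filter and the normalization. The lists of called probes are therefore not from separate fits. Across the 10691 tested probes the OE+KD change with RA and the OE change without RA on day 2 correlated with r = 0.75, and with the OE change on day 4 with r = 0.573. Probes are not independent replicates. Of the probes called higher in OE+KD, 951 (63.0%) were also called higher by OE on day 2, which is 57.1% of that list, where 15.6% of all tested probes were called higher. Of those called lower in OE+KD, 917 (57.2%) were also called lower by OE, 54.2% of that list, where 15.8% of all tested probes were called lower. The opposite direction was called at 13 of the higher and 8 of the lower probes. On day 4 the opposite direction was more frequent, at 109 of the higher and 48 of the lower probes, beside 974 and 992 in the same direction, where 26.2% of all tested probes were called higher and 25.3% lower on that day. All 10 of the largest rises and all 10 of the largest falls were called in the same direction by OE on both days.

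Taking only probes that OE moved in 1 direction on both days without RA, 1226 were raised and 1261 lowered. In OE+KD with RA, 755 (61.6%) of the raised probes were called higher and 6 lower, with 465 not called, where 14.1% of all tested probes were called higher. Of the lowered probes, 754 (59.8%) were called lower and 6 higher, with 501 not called, where 15.0% of all were called lower. The quartiles of the change at the raised probes were 0.18 and 0.49 log2 in OE+KD, and 0.30 and 0.66 in OE with RA. At the lowered probes they were -0.50 and -0.17 in OE+KD, and -0.73 and -0.34 in OE. The median change over all tested probes was 0.00.

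Most of these probes had an OE+KD mean between the OE and the scrambled mean. This was so at 875 (71.4%) of the raised and 931 (73.8%) of the lowered probes, and at 46.6% of all tested probes. OE+KD lay beyond OE at 295 and 244 of them, and on the other side of scrambled at 56 and 86. The direct test against OE called 297 of the raised and 468 of the lowered probes nearer to scrambled in OE+KD, and 16 and 20 further from it, where 8.42% of all tested probes were called lower and 9.16% higher than in OE. Against KD, 169 of the raised and 377 of the lowered probes were called further from scrambled in OE+KD, and 15 and 6 nearer to it, where 3.59% of all tested probes were called higher and 5.24% lower than in KD.

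The individual arrays showed the same order. For the raised probes the median distance from the scrambled mean was 0.33 log2 on each of the 3 OE+KD arrays, to 2 decimals. It was 0.45, 0.48 and 0.45 on OE arrays and 0.20, 0.20 and 0.17 on KD arrays. For the lowered probes it was -0.32 on each OE+KD array, -0.49, -0.54 and -0.50 on OE arrays and -0.11, -0.12 and -0.09 on KD arrays. No array of 1 group overlapped the next group, and the 3 OE+KD arrays differed from each other by less than the distance to either neighbour.

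**Figure D3:**
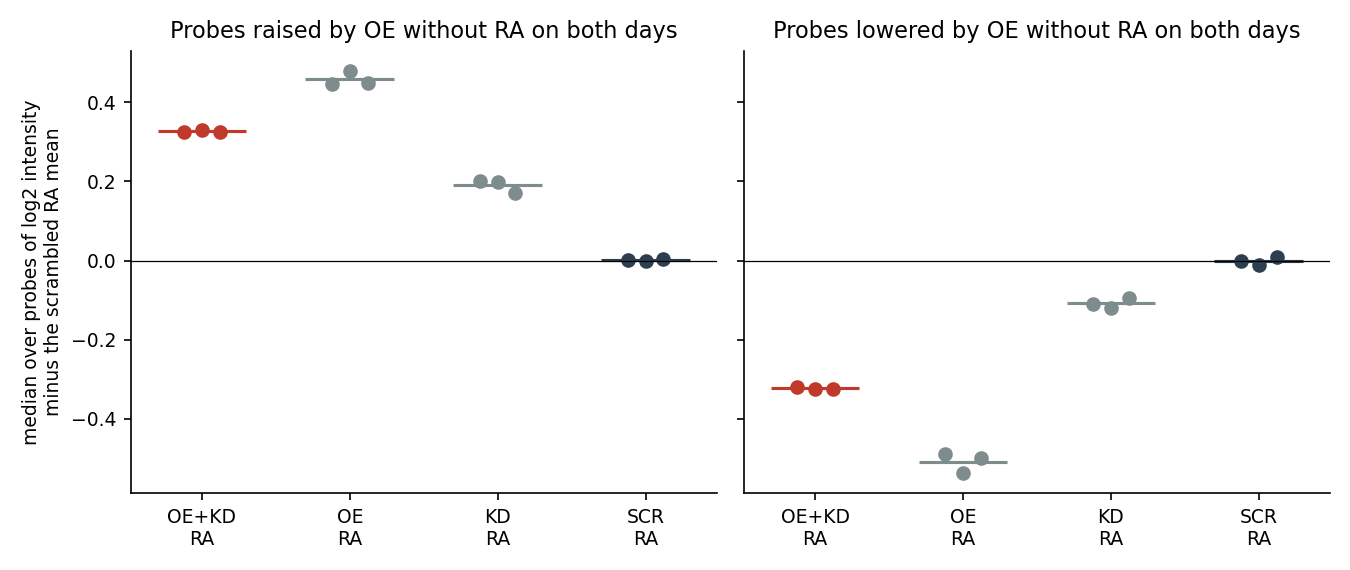
Median distance from the scrambled RA mean, in log2 intensity, of the 1226 probes raised (left) and the 1261 lowered (right) by OE without RA on both days, with 1 point per RA array and a bar at the mean of 3 arrays. OE+KD arrays lie between OE and KD arrays in both panels, with scrambled arrays near 0.

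Probes that respond to RA were followed as well. In OE arrays, which are in neither group of the comparison, RA raised 106 probes and lowered 57 by at least 1 log2. Of the raised ones OE+KD was called higher than scrambled at 30 and lower at 26, with a median of 0.05 log2. Of the lowered ones it was called higher at 12 and lower at 12, with a median of 0.12. The shares called, 52.8% and 42.1%, lie above the 29.1% of all tested probes, with no prevailing direction. Across all tested probes the OE+KD change and the RA effect in OE arrays correlated with r = 0.017.

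The KD effect was then followed in both backgrounds. OE+KD minus OE gives it in OE cells and KD minus scrambled gives it in scrambled cells, and these differences share no array. Across the tested probes they correlated with r = 0.144. KD against scrambled was called at 1740 probes, or 16.3%. Of these, 435 (25%) were also among the 1879 called between OE+KD and OE, which is 23.2% of that list. There 283 (65.1%) had the same sign and 152 the opposite one. For the OE effect in KD and in scrambled cells, OE+KD minus KD and OE minus scrambled correlated with r = 0.527. The difference between these OE effects equals that between the KD effects at every probe. The higher r therefore does not show that OE depended less on its background. Changes against scrambled were wider for OE, with an SD of 0.372 log2, than for KD, with 0.246. OE against scrambled was called at 39.7% of all tested probes, and of 700 probes in both lists, 661 (94.4%) moved the same way.

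The difference between the KD effects was tested directly, as OE+KD minus OE minus KD plus scrambled, which is also the departure of OE+KD from the sum of the OE and KD changes on the log2 scale. It was called at 1417 probes (13.3%), 683 positive (6.39%) and 734 negative (6.87%). The share of positive differences was 48.2%, against 33.7% with median scaling. At the positive probes the median change from scrambled was -0.32 log2 in OE+KD, -0.59 in OE and -0.25 in KD. At the negative ones it was 0.38 in OE+KD, 0.59 in OE and 0.38 in KD. The sum of the OE and KD changes had a median of -0.87 at the positive and 0.97 at the negative probes, further from 0 than OE+KD. These medians describe probes chosen by the same values and carry no test. The OE+KD mean lay between the lowest and the highest of the other 3 group means at 600 of the positive and 636 of the negative probes. These counts too describe probes chosen by the same group means and carry no test. The share over all tested probes was not computed.

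**Figure D4:**
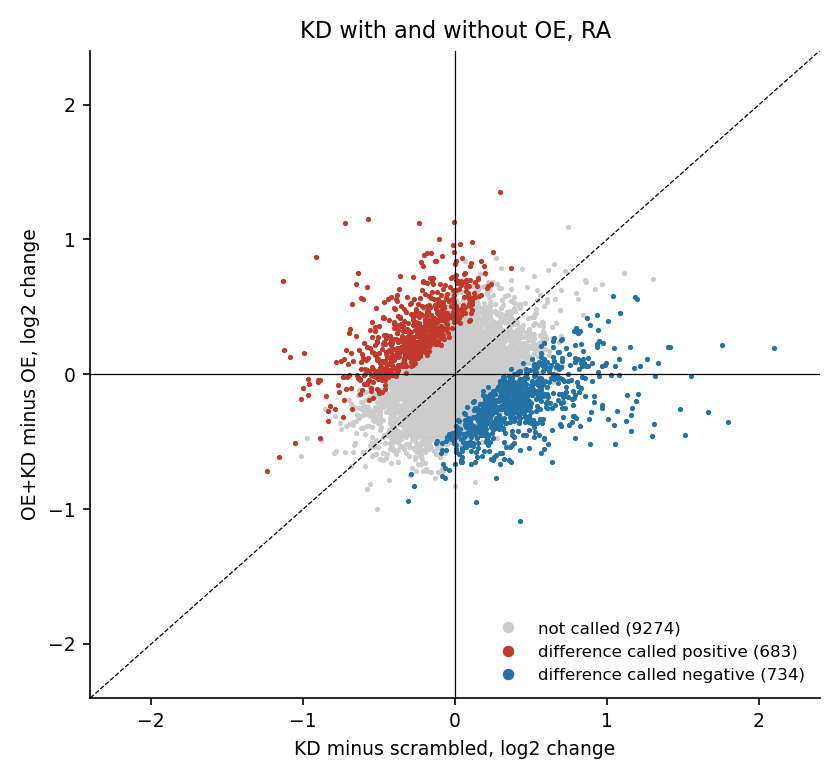
The KD effect in OE cells (OE+KD minus OE, vertical axis) against the KD effect in scrambled cells (KD minus scrambled, horizontal axis), both log2 changes with RA, for each tested probe, with the dashed line at equal effects. The 683 probes with a positive difference (red) lie above the line and the 734 with a negative one (blue) lie below it. Of the red ones 610 lie left of 0 and 614 lie above 0, and of the blue ones 709 lie right of 0 and 620 lie below 0. These counts describe probes chosen by the plotted difference and carry no test.

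The probe furthest from additivity was ILMN_12713, at -2.15 log2 (SE 0.114, limma adjusted p = 3.52e-12). It read 13.16, 13.20 and 13.17 in OE+KD arrays, 13.52, 13.42 and 13.65 in OE arrays, 13.27, 13.33 and 13.50 in KD arrays and 11.50, 11.64 and 11.56 in scrambled arrays. Each manipulation alone stood far above scrambled, by 1.96 log2 for OE and 1.80 for KD, and the double manipulation stood no higher, at 1.61 (limma adjusted p = 5.38e-13). OE+KD was below OE by 0.35 on the log2 scale, a difference of -0.35 (limma adjusted p = 0.00420). ILMN_28633 followed, with a departure of -1.97 (SE 0.171, limma adjusted p = 2.20e-08). It averaged 9.99 ± 0.03 in OE+KD, 10.45 ± 0.37 in OE, 10.16 ± 0.24 in KD and 8.65 ± 0.05 in scrambled arrays (SD, n = 3 each).

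ILMN_23980 had the largest positive departure, 1.85 log2 (SE 0.165, limma adjusted p = 3.55e-08). Its values were 11.45, 11.23 and 11.29 in OE+KD arrays, 10.31, 9.98 and 10.30 in OE arrays, 11.36, 11.60 and 11.22 in KD arrays and 12.32, 11.96 and 12.06 in scrambled arrays. All manipulated groups were below scrambled, OE+KD by 0.79 on the log2 scale, a change of -0.79 (limma adjusted p = 1.57e-05). OE+KD stood 1.12 log2 above OE (limma adjusted p = 1.16e-06) and differed from KD by -0.07 (SE 0.117, limma adjusted p = 0.789). This probe depended on RA: in OE arrays RA raised it by 3.93 log2 (limma adjusted p = 3.49e-19), and without RA on day 2 it read 6.29, 6.07 and 6.45 in OE arrays, against 6.41, 6.19 and 6.35 in scrambled arrays, near the low end of the scale.

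ILMN_16738 followed among the positive departures, at 1.82 log2 (SE 0.157, limma adjusted p = 2.19e-08). Its values were 9.11, 9.12 and 9.14 in OE+KD arrays, 8.43, 8.41 and 8.45 in OE arrays, 9.08, 9.12 and 9.36 in KD arrays and 10.26, 10.31 and 10.37 in scrambled arrays. The 4 groups did not overlap except OE+KD and KD. RA raised it too, by 1.36 log2 in OE arrays (limma adjusted p = 6.57e-10). Without RA on day 2 OE lowered it by 1.19 on the log2 scale, a change of -1.19 (limma adjusted p = 8.12e-09).

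The number of probes that set OE+KD apart from every other RA group depended on the model. Without a replicate term, 20 of the 10691 (0.187%) were called in 1 direction against scrambled, OE and KD, 13 of them higher and 7 lower, and these tests share the OE+KD arrays. With the replicate number as a block, the count was 64, with 25 higher and 39 lower. With median scaling it was 6, with 1 higher and 5 lower, so neither the count nor its prevailing direction was stable. The count ran from 4 without replicate 1 of OE+KD to 51 without replicate 1 of OE, it was 7 without replicate 3 of KD, 10 without replicate 1 of KD, 13 without replicate 2 of OE+KD. A fit of the RA groups alone gave 2. None of the 20 kept all its calls when each of the 12 RA arrays was left out in turn. As an example chosen after its values were seen, ILMN_19600 read 8.31, 8.58 and 8.68 in OE+KD arrays, 8.86, 9.17 and 8.82 in OE arrays, 9.12, 9.08 and 9.54 in KD arrays and 9.01, 9.16 and 9.15 in scrambled arrays. It was -0.58 log2 relative to scrambled (limma adjusted p = 0.000462), -0.42 to OE (limma adjusted p = 0.0128) and -0.72 to KD (limma adjusted p = 0.000154), and its calls were lost without replicate 2 of OE or replicate 1 of OE+KD.

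The deposited fold changes for OE+KD carry a header that names scrambled cells without RA as the control, and their values show another. Every one of the 20589 values in the authors' deposited table equalled the mean log2 normalized intensity of OE+KD replicates 1 and 2 minus that of the 3 scrambled arrays with RA, within 1e-05. With scrambled arrays without RA on day 2 in their place, 31.1% of the values matched and the largest difference was 9.39 log2. Replicate 3 of OE+KD had no part in that column: with all 3 OE+KD arrays 32.4% matched, and 6670 probes (32.4%) are at exactly 0 in the authors' deposited table. The KD and OE columns with RA in the authors' deposited table were likewise made from replicates 1 and 2 against scrambled cells with RA, at all 20589 probes.

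**Figure D5:**
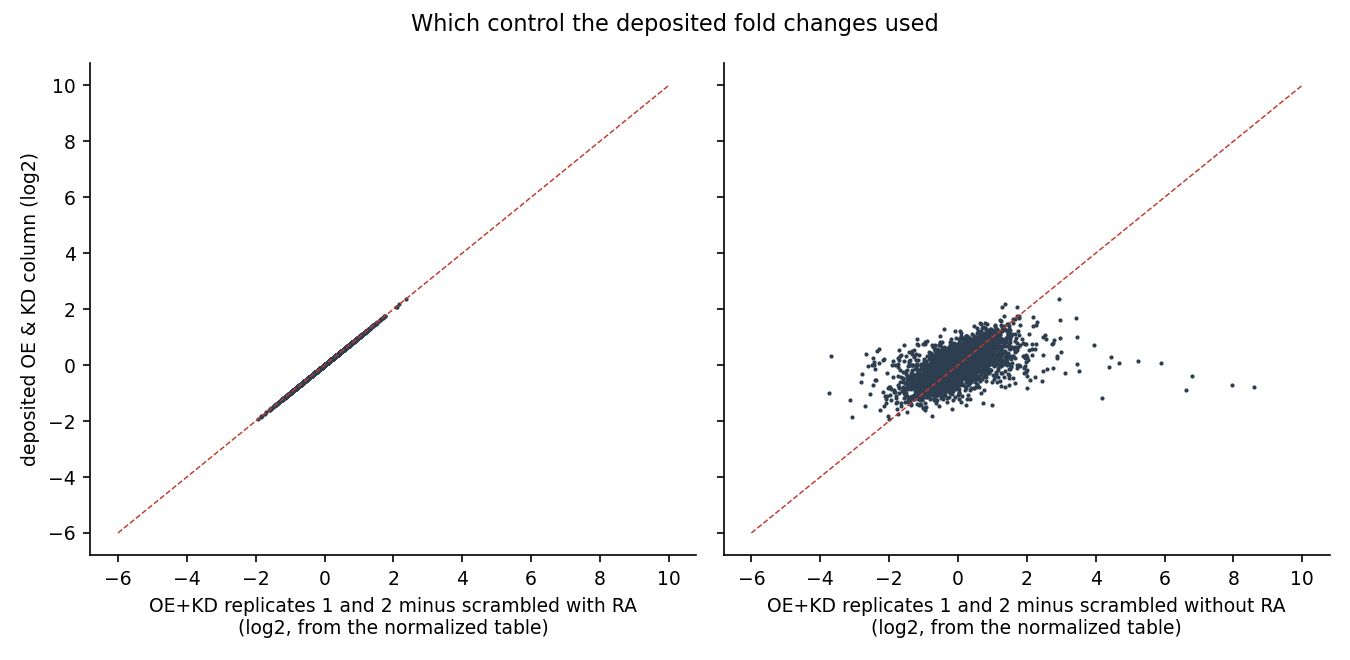
The deposited OE & KD column (vertical axis, log2) against the same change computed from the authors' normalized intensities for replicates 1 and 2 of OE+KD, with scrambled arrays with RA (left) or without RA (right) as the control, 1 point per probe. On the left all 20589 probes lie on the dashed line of equality and on the right they scatter by up to 9.39 log2.

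The number of probes past 2-fold depended on which OE+KD arrays were used. By the authors' deposited table, 128 probes were at least 1 log2 higher and 138 at least 1 log2 lower. With all 3 OE+KD arrays in the same normalized values the counts were 115 and 115. Replicates 1 and 3 gave 116 and 137, and replicates 2 and 3 gave 118 and 112. The lower count thus rose without replicate 2 as well, while the higher count was largest without replicate 3. With scrambled cells without RA as the control, as the header reads, replicates 1 and 2 gave 334 and 344. Over the tested probes the column in the authors' deposited table correlated with the change given here at r = 0.950. ILMN_22953 stands at 2.38 log2 and ILMN_21370 at -1.93 in the authors' deposited table. Replicate 3 did not stand apart in the arrays: its difference from the scrambled mean correlated with that of the other OE+KD arrays at r = 0.849, against 0.829 for replicate 1 and 0.888 for replicate 2, and without it 2623 probes were called, against 2462 without replicate 1 and 2521 without replicate 2.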

How the data were processed

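Total RNA was labelled with biotin and measured on Illumina arrays, per the labels' protocols. The deposited scanner table holds linear intensity values, 14.3% to 17.5% of them negative on the 6 arrays, so a background had been subtracted by the authors; the labels name no scanner software or array version. A second deposited table gives normalized intensity per array, made by the authors by a method that the labels do not state, with a floor of 20 and medians of 49.6 to 52.6 on the 6 arrays. The third holds log2 fold changes, per the file headers, whose control was found from the values.

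The scanner intensities went through normexp with an offset of 50, then quantile normalization, then log2. Of 20589 probes, 10691 (51.9%) were tested. One limma 3.58.1 model (R 4.3.3; lmFit, eBayes, 16 residual degrees of freedom) covered all 24 arrays with 8 group means, and p-values were adjusted by Benjamini-Hochberg over all tested probes. Tables and plots used Python 3.11.15, pandas 2.3.3, NumPy 2.4.6 and matplotlib 3.10.9. Probes were named by rule: the largest called rises and falls without overlap, or, for the departure from additivity, the largest called, with the first 2 each way printed. Of the probes so named for OE+KD against OE and against KD, only ILMN_6588 and ILMN_23980 are described above. The others include probes not called against scrambled in OE+KD, such as ILMN_12727, with -0.01 log2 in OE+KD and -1.14 in OE. They also include called ones, such as ILMN_5708, the largest rise against OE, with -0.54 in OE+KD and -1.89 in OE. The members, lists and tests were chosen with earlier results of these data known. In a simulation of OE+KD against scrambled with 20589 probes, 10776 of them tested and 200 changed, 79% of the 0.5 log2 changes and 98% of the 1 log2 changes were recovered, and 15 of 192 calls were false (7.8%). The changes were placed only on probes more than 0.5 log2 above the median scrambled level. The noise was independent, with 1 SD per probe in all groups and no replicate effect, and background correction was left out. The rates hold for that setting and not for dim probes or groups of unequal spread.

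Replicate numbers come from the titles. Arrays of the same number in OE+KD and OE deviated together, with r of 0.108 to 0.326 across probes. For OE+KD and scrambled it was 0.098 to 0.42, and for OE+KD and KD 0.079 to 0.218. Some arrays of different number did so too, with r of 0.235 for OE+KD replicate 3 and scrambled replicate 2. Others deviated in opposite ways, with r of -0.428 for OE+KD replicate 1 and scrambled replicate 2. The share of negative scanner values also followed the number. It was 16%, 14.9% and 17.5% in OE+KD replicates 1, 2 and 3, and 16.2%, 14.3% and 17% in scrambled ones. These values do not set OE apart from the other groups. The main model holds no replicate term and so does not allow for this likeness, and the block is given as an alternative. With the block the counts rose to 3712 against scrambled, 2719 against OE, 1397 against KD and 2044 for the departure from additivity.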

Additional observations from a re-analysis of the deposited data

Results flagged for a closer look

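The KD effect differed between OE and scrambled cells, both with RA, at 1417 of the 10691 tested probes (13.3%) by the test of the difference itself. The count was 891 with median scaling and 774 when only the RA groups were fitted. The largest positive differences were at ILMN_23980 (1.85 log2) and ILMN_16738 (1.82), and the largest negative ones at ILMN_12713 (-2.15) and ILMN_28633 (-1.97). All 10 probes named for this difference kept their call when each of the 12 RA arrays was left out in turn, an alternative added after the data were seen. They were chosen as the largest differences in the same arrays, so this says little about the other called probes.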

How the results depend on the processing

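The 20 probes named for OE+KD against scrambled kept their direction and their call in all 299 pairs of probe and alternative that were tested, over 15 alternatives. They were chosen as the largest changes in the same arrays, so this says little about the other called probes. The count of 3112 became 1952 when only probes above the 75th percentile were tested, which are fewer, and 2372 to 2623 when any 1 array of the 2 groups was left out. With the replicate number as a block it was 3712, and the block moved the counts against OE, against KD and for the departure from additivity by less than 1.5 times. The count against OE was 104 when only its 2 groups were fitted and 967 to 2677 with 1 array left out. The count against KD was 537 with median scaling and 577 to 826 with 1 array left out. The departure from additivity was called at 891 probes with median scaling, at 774 when only the RA groups were fitted and at 1054 to 1833 with 1 array left out. The 20 probes apart from all other RA groups became 64 with the replicate block, 6 with median scaling, 10 with no filter, 33 with array weights, 2 when only the RA groups were fitted and 4 to 51 with 1 array left out. Apart from the filter, the cause was not tested. Values near the low end have no order, and no detection p-values were analysed here.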
